A study of Mus musculus with 3 samples.

Results

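The miR-15/16 family of microRNAs (miRNAs) was followed across 3 arrays of mouse muscle cells. Its members were chosen by name, as the guide (5p) arms of miR-15a, miR-15b, miR-16, miR-195, miR-322, miR-497 and miR-503, with miR-195b, whose name carries no arm. This gave 8 probes of the 1265 mouse miRNA probes on each array. C2C12 is a line of myoblasts, muscle precursor cells that fuse into myotubes when serum is withdrawn. C2C12-PR was kept in growth medium, DMEM holding 10% fetal bovine serum, and C2C12-DF in differentiation medium, DMEM holding 2% horse serum. W408-PR cells, called W4-08 in the study, are C2C12 cells stably transfected with a V5-tagged Wnt4 cDNA behind the CMV promoter. They were selected in blasticidin and kept in the 10% serum medium. The study reports that these cells can form myotubes on their own even in that medium. The sample label calls the W408-PR culture proliferating, and how far it had differentiated is not given. Below, the differentiating culture means C2C12-DF only. For how long the C2C12-DF culture had been in low serum, and whether W408 descends from 1 clone, is not given in the sources used here. Total RNA of each culture was labelled with Cy5 and hybridized to 1 Toray 3D-Gene array, so no condition has a replicate and no test between conditions was possible.

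A miRNA finds its target mRNAs mainly by its seed, a short stretch near its 5′ end, so miRNAs that share a seed share many predicted targets. The miR-15/16 family is known as a brake on the cell cycle, with cyclins of the D and E type and the phosphatase Cdc25a among its known targets, and miR-322 and miR-503 have been tied to the exit of myoblasts from the cycle. No mRNA or protein was measured on these arrays.

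The mature sequences are shown because the shared seed defines the family and because the bases outside it set how far the probes can tell the members apart. Capitals mark the seed, bases 2 to 8 counted from the 5′ end. All 8 members were matched in RefSeq (GRCm38.p6), 1 of them, miR-497-5p, by its gene Mir497.
mmu-miR-15a-5p: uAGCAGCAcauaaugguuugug
mmu-miR-15b-5p: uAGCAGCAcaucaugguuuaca
mmu-miR-16-5p: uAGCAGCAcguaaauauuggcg
mmu-miR-195a-5p: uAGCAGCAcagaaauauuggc
mmu-miR-195b: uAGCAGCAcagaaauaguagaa
mmu-miR-497-5p: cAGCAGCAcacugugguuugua
mmu-miR-322-5p: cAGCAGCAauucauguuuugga
mmu-miR-503-5p: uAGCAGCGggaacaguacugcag

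Of the 8 members, miR-503-5p alone has the seed AGCAGCG, and the other 7 share AGCAGCA. miR-15a-5p lies at chr14:61632075-61632096 and 1 copy of miR-16-5p at chr14:61631936-61631957, both on the minus strand, and the genes of both hairpins lie within the long noncoding RNA gene Dleu2. miR-15b-5p (chr3:69009775-69009796) and the other copy of miR-16-5p (chr3:69009918-69009939) are on the plus strand within Smc4, which encodes a condensin subunit. The mature miR-16-5p of both loci is the same, so its probe cannot assign the signal to a locus. miR-497-5p (chr11:70234730-70234751) and miR-195a-5p (chr11:70235062-70235082) are neighbours on the plus strand, and miR-195b stands apart at chr2:56785825-56785846, also on the plus strand. On the minus strand of the X chromosome, miR-503-5p (chrX:53054027-53054049) and miR-322-5p (chrX:53054306-53054327) lie within the gene C430049B03Rik. From the 5′ end, miR-16-5p and miR-195a-5p have the same base at 19 of 21 positions, and miR-15a-5p and miR-15b-5p at 18 of 22. Probe sequences were not among the values used, so binding of 1 member to the probe of another was not tested.

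Brightness is given in arbitrary linear units above background, the trimmed mean of the blank spots of the array. The ± is 1 technical SD. It combines the spread of the blank spots (6.33 to 7.59 units) with that of the spike controls (0.0977 to 0.140 on the log2 scale). Both spreads are taken within an array. The technical SD thus holds no biological variation and none from labelling and hybridizing each culture separately. A multiple of it does not measure how far repeat arrays would differ. Probes to which the authors assign a processed value are called detected here, and the dimmest had 11.9 units (C2C12-PR), 10.8 units (C2C12-DF) and 9.77 units (W408-PR). At these limits 339, 370 and 477 probes were detected, in that order, and 6.01% to 7.15% of blank spots passed. Wnt4 is no miRNA and has no probe here. As a check of the cell type, 3 muscle markers, miR-206-3p, miR-133a-3p and miR-133b-3p, were detected on all 3 arrays, with summed levels of all 4 markers of 122, 405 and 3650 units on C2C12-PR, C2C12-DF and W408-PR. The remaining marker, miR-1a-3p, was detected on W408-PR only. Of 11 markers of blood, neural, epithelial, liver and endothelial cells, 2 were detected on any array, miR-223-3p at up to 18.8 units and miR-126-3p at 10.8 units, and all 11 together summed to 19.2, 22.3 and 48.9 units. In cultures measured in bulk, fewer cells that hold a miRNA and less of it per cell cannot be told apart.

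Within the family, 6 of the 8 members were detected on all 3 arrays, 1 on W408-PR alone and 1 on none. Of all probes, 277 of 1265 were detected on every array. The levels of different probes are not set against each other, since probes differ in how brightly they report. The units are not scaled between arrays, so a higher reading on an array need not be a rise relative to its other probes.

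**Figure D1:**
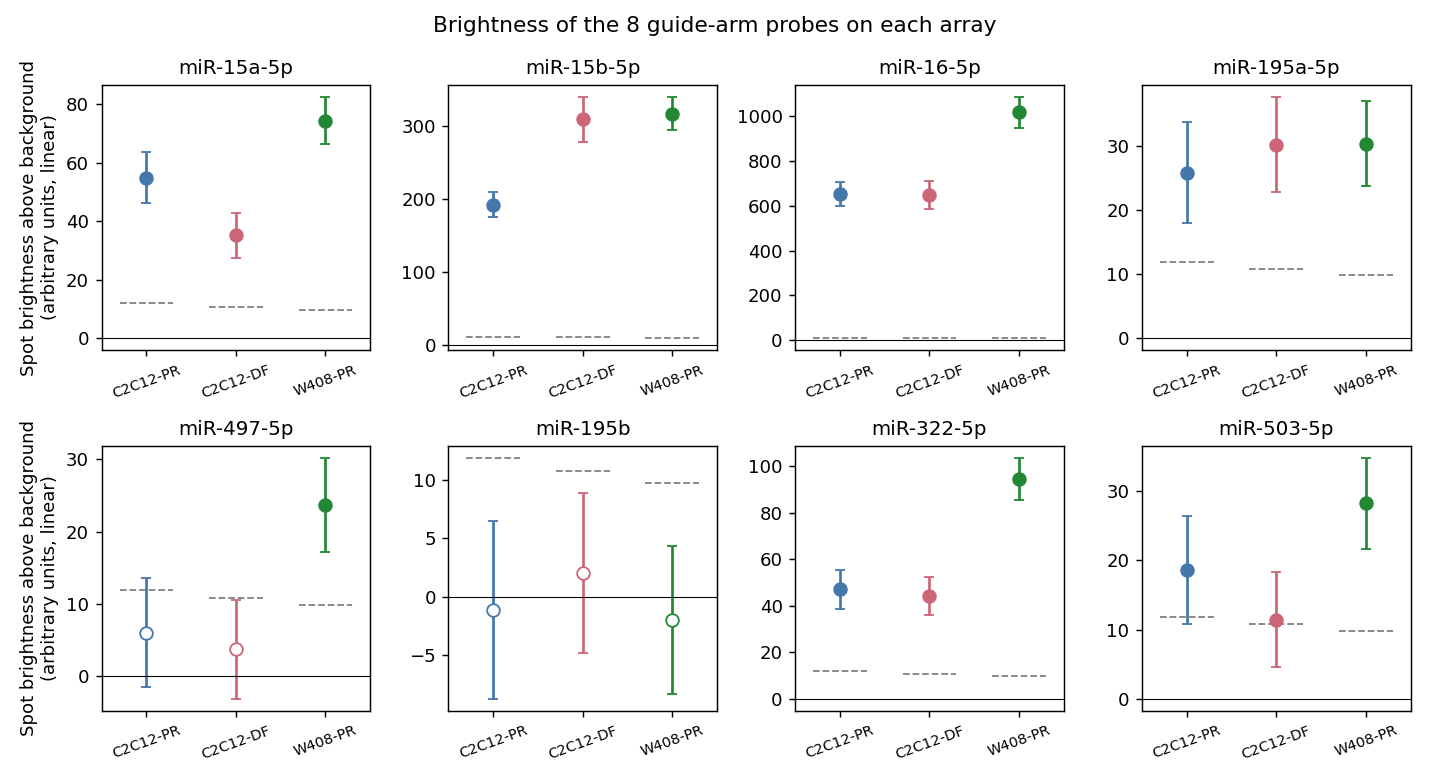
Brightness above background (y axis, arbitrary linear units, a scale of its own in each panel) of the 8 guide-arm probes on the 3 arrays (x axis). Points are single spots with 1 technical SD, open where undetected, and dashed lines mark the detection limit. miR-15b-5p sits near 192 units on C2C12-PR and at 309 and 317 units on the other arrays, while miR-16-5p and miR-322-5p are high on W408-PR alone.

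miR-15a-5p, a guide of the Dleu2 locus, read 54.8 ± 8.77 units in C2C12-PR, 35.2 ± 7.64 in C2C12-DF and 74.4 ± 8.09 in W408-PR. In these unscaled units it was lowest in the differentiating culture and highest in the Wnt4 subline. After the normalization described below, its log2 ratio of W408-PR over C2C12-PR was 0.05 ± 0.12. miR-15b-5p, its counterpart in Smc4, read 192 ± 17.1 units in C2C12-PR, 309 ± 30.7 in C2C12-DF and 317 ± 22.4 in W408-PR. Its differentiating culture and its Wnt4 subline overlapped within 1 technical SD, and both lay above C2C12-PR. miR-16-5p, which both loci produce, read 654 ± 52.8 units in C2C12-PR, 648 ± 63.3 in C2C12-DF and 1016 ± 69.1 in W408-PR. Here the parental cultures overlapped within 1 technical SD, and the Wnt4 subline stood above them.

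For miR-195a-5p the levels were 25.8 ± 7.87, 30.2 ± 7.43 and 30.3 ± 6.65 units on C2C12-PR, C2C12-DF and W408-PR, which overlap. Its neighbour miR-497-5p read 6.0 ± 7.61 and 3.66 ± 6.84 units on C2C12-PR and C2C12-DF, below the detection limits, and 23.7 ± 6.53 on W408-PR, where it was detected. miR-195b, from its separate locus, read -1.13, 2.00 and -1.96 units and was not detected on any array. All values of these 3 probes lie within 5 blank-spot SD of background.

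miR-322-5p, the mouse counterpart of human miR-424, read 47.0 ± 8.47 units in C2C12-PR, 44.3 ± 8.07 in C2C12-DF and 94.6 ± 9.01 in W408-PR. Its parental cultures overlapped and its Wnt4 subline lay clear of them. miR-503-5p, from the same transcript, read 18.6 ± 7.74 units in C2C12-PR, 11.5 ± 6.92 in C2C12-DF and 28.2 ± 6.61 in W408-PR. The C2C12-DF value lies just above the limit of 10.8 units, so the order of its levels rests on values close to background.

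To compare cultures, the spot brightness was background-corrected with an offset of 50, quantile-normalized over all miRNA probes and converted to log2. The offset draws ratios of dim probes toward 0. A call needed a 2-fold difference, a log2 ratio of 1 or more in either direction, and detection on whichever array was brighter. On simulated arrays this rule missed nearly all lowered probes as dim as miR-195a-5p, miR-322-5p and miR-503-5p on C2C12-PR. It called raised dim probes only when the change was large. A count of 0 calls therefore says little about a decrease or a moderate rise of these. miR-15a-5p had a normalized log2 level of 6.97 on C2C12-PR, and the undetected miR-195b had 6.10 on C2C12-DF. A loss of miR-15a-5p down to that level would not reach the limit either, so its missing call says little about a decrease. In unscaled units miR-322-5p was 2.01 times as bright on W408-PR as on C2C12-PR, and its normalized log2 ratio was 0.32. For miR-15a-5p a unit ratio of 0.64 in C2C12-DF over C2C12-PR became a log2 ratio of -0.30.

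In differentiation medium the median of the family lay near 0 relative to C2C12-PR, with miR-15b-5p above and miR-15a-5p below. Of the 8 members, 0 were called, beside 4.01% of the 424 probes detected on either array. The 6 members detected on both arrays had a median log2 ratio of -0.02, from -0.30 to 0.45, and all 285 such probes had a median of 0.04, with quartiles of -0.15 and 0.26. miR-15b-5p had the highest ratio, 0.45 ± 0.14 or 1.37-fold, which is 3.22 times its technical SD. miR-15a-5p had the lowest, -0.30 ± 0.17, and lay 1.79 technical SD below 0. The other detected members lay within 1 technical SD of 0, miR-16-5p at 0.00 ± 0.18, miR-195a-5p at 0.01 ± 0.19, miR-322-5p at -0.04 ± 0.16 and miR-503-5p at -0.14 ± 0.20.

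Both ratios come from the same pair of arrays, so a constant scale factor cancels from their difference. miR-15b-5p exceeded miR-15a-5p by 0.76 ± 0.22 on the log2 scale in C2C12-DF over C2C12-PR. Under 10 settings of background and scaling this difference ran from 0.76 to 1.33 with the same sign in each. Settings that differ only in a scale factor per array give the same difference, so the 10 are not separate checks of it. Of the 15 pairs among the 6 detected members, 3 differed by more than 2 technical SD in this comparison, and each held miR-15b-5p, with miR-15a-5p, miR-322-5p or miR-503-5p as its partner. A single spot per probe lies behind each of these values. The share of other probe pairs that differ by as much is not given, here or in the comparisons below.

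**Figure D2:**
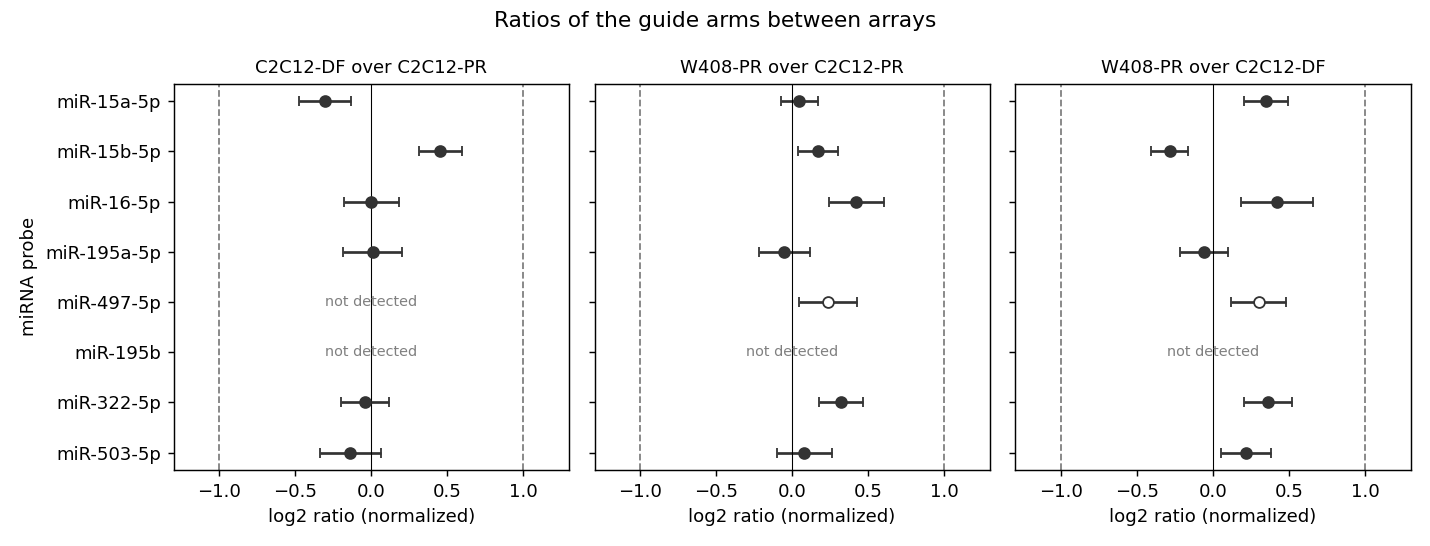
Normalized log2 ratios (x axis) of the 8 guide-arm probes (y axis) in the 3 comparisons, with 1 technical SD, open where at least 1 of both arrays did not detect the probe. Dashed lines mark a log2 ratio of 1 in size, which no member reached, and in C2C12-DF over C2C12-PR miR-15b-5p (0.45) and miR-15a-5p (-0.30) lie on opposite sides of 0.

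As a family with ties to proliferation, the miR-17 seed family (miR-17-5p, miR-20a-5p, miR-20b-5p, miR-93-5p, miR-106a-5p and miR-106b-5p) was set beside the miR-15/16 members. All 6 of its probes were detected on every array. Their log2 ratios in C2C12-DF over C2C12-PR had a median of -1.0, from -1.29 to -0.30. The highest was that of miR-106b-5p, the dimmest of them on C2C12-PR at 61.9 units, with -0.30 ± 0.18. miR-15a-5p, at 54.8 units there, had -0.30 ± 0.17. Of the 6 miR-17 family probes, 3 were called lower, beside 4.01% of 424 probes called in either direction. On C2C12-PR the called probes read 189 to 348 units. miR-15b-5p and miR-16-5p read 192 and 654 units there, and the other detected miR-15/16 members 18.6 to 54.8. The call rule missed nearly all lowered probes as dim as miR-195a-5p, miR-322-5p and miR-503-5p. The counts of calls in both families are therefore not compared. The medians of the miR-15/16 members and of this family differed by 0.98, and by 0.86 to 1.28 under the 10 settings. In W408-PR over C2C12-PR the same difference was 0.28, with a range of 0.11 to 0.46. In W408-PR over C2C12-DF it had the opposite sign, -0.50 with a range of -0.68 to -0.50, the miR-17 family having a median of 0.79 and the miR-15/16 members 0.28. None of these differences has a replicate check or is matched for brightness, and the comparisons share arrays. Settings that differ only in a scale factor per array gave nearly identical differences, so the 10 are not separate checks.

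After normalization with the offset, most members read higher in the Wnt4 subline than in C2C12-PR, by less than the 2-fold limit. Of the 8 members 0 were called, beside 2.33% of 514 probes. The 6 members detected on both arrays had a median log2 ratio of 0.12, against -0.03 for all 302 such probes. Of the 6, 5 lay above 0, beside 43.4% of the 302. miR-16-5p had the highest ratio, 0.42 ± 0.18 or 1.34-fold, followed by miR-322-5p at 0.32 ± 0.14 or 1.25-fold. These 2 lay more than 2 technical SD above 0, at 2.33 and 2.21. miR-15b-5p (0.17 ± 0.13), miR-503-5p (0.08 ± 0.18), miR-15a-5p (0.05 ± 0.12) and miR-195a-5p (-0.05 ± 0.17) did not. Under the 10 settings miR-16-5p, miR-322-5p, miR-15b-5p and miR-15a-5p stayed above 0, miR-15a-5p by only 0.0006 with median scaling. miR-503-5p was below 0 in 1 setting and miR-195a-5p above 0 in 3. No pair of members differed by more than 2 technical SD here.

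How much brighter the members read on the W408-PR array depends on its scale. In units above background with no scaling, miR-322-5p was 2.01 ± 0.41 times as bright as on C2C12-PR, miR-15b-5p 1.65 ± 0.19 times and miR-16-5p 1.55 ± 0.16 times. Differences of 47.6 ± 12.4, 125 ± 28.2 and 363 ± 87.0 units stand behind these ratios. Other probes read brighter too. With plain subtraction scaled to the spike controls, all 302 probes detected on both arrays had a median log2 ratio of 0.26. The members had 0.55 in that setting, which was added after seeing the data. The authors' processed values put the median of all 302 probes at a log2 ratio of 1.04. On them the members had a median of 1.32 and 5 of the 6 passed the 2-fold limit, as did 53.3% of those probes. On that scale the whole array is shifted, and the members lay 0.28 above the median of all probes, against 0.15 after quantile normalization. W408-PR also had 138 more detected probes than C2C12-PR, and the summed muscle markers were 3650 units against 122. The part of either in the result was not tested.

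miR-497-5p gives only a bound in this comparison. After normalization the bound for W408-PR was 1.09-fold over C2C12-PR and 1.12-fold over C2C12-DF, taken against the dimmest detected probe of the other array. In unscaled units above background the bounds were 1.99-fold and 2.20-fold. No error is attached to these bounds, so they are not firm minima. The normalized log2 ratios were 0.24 ± 0.19 over C2C12-PR and 0.30 ± 0.18 over C2C12-DF, each within 2 technical SD of 0. In unscaled units the differences lay 1.76 and 2.12 technical SD above 0, in that order.

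Relative to C2C12-DF, the Wnt4 subline again had 0 of 8 members called, beside 2.1% of 524 probes. The authors' processed values called 4 members higher, beside 32.2% of 323 probes, and plain subtraction scaled to the spike controls (a setting added after seeing the data) also 4, beside 10.1% of 524. The median log2 ratio of the 6 detected members was 0.28, against -0.03 for all 323 such probes. miR-16-5p (0.42 ± 0.23), miR-322-5p (0.36 ± 0.16), miR-15a-5p (0.35 ± 0.14) and miR-503-5p (0.22 ± 0.16) lay above 0 under every one of the 10 settings. miR-195a-5p read -0.06 ± 0.16 and was above 0 in 1 setting. miR-15b-5p read -0.28 ± 0.12 after quantile normalization. It was above 0 in 2 settings, and in unscaled units its levels on these arrays had a ratio of 1.03 ± 0.13. Of the 15 pairs, 4 differed by more than 2 technical SD, each again with miR-15b-5p as the lower partner. The comparisons share arrays, so this pattern is not independent of the C2C12-DF result.

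By cluster, the X-linked pair and the miR-15/16 trio were not told apart after the offset. The mean log2 ratio of miR-322-5p and miR-503-5p less that of miR-15a-5p, miR-15b-5p and miR-16-5p was -0.14 ± 0.16 in C2C12-DF over C2C12-PR, -0.01 ± 0.14 in W408-PR over C2C12-PR and 0.13 ± 0.15 in W408-PR over C2C12-DF. Each lies within 1 technical SD of 0. With plain subtraction and median scaling, which does not draw dim probes toward 0, the differences were -0.40, 0.20 and 0.61. In that setting the log2 ratios in the same order were -0.67, 0.20 and 0.87 for miR-503-5p and -0.05, 0.61 and 0.66 for miR-322-5p. Inside the trio, miR-15a-5p and miR-15b-5p parted in the differentiating culture.

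**Figure D3:**
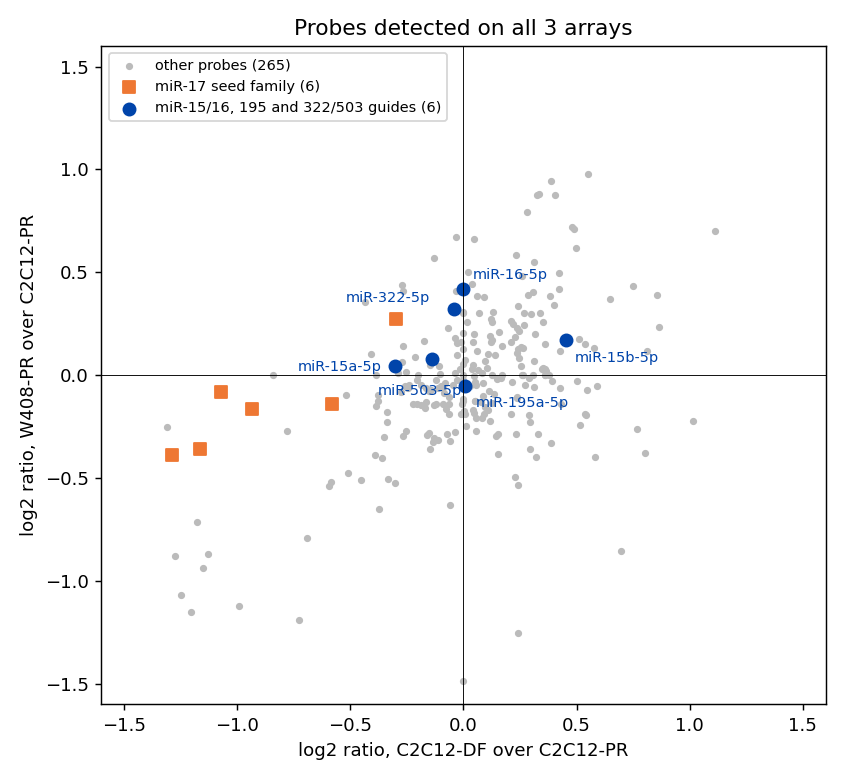
Log2 ratios of the probes detected on all 3 arrays, C2C12-DF over C2C12-PR on the x axis and W408-PR over C2C12-PR on the y axis, with 6 of the 277 probes outside the axes. Blue circles are the 6 detected miR-15/16 family guides, which lie close to the centre, and orange squares the miR-17 seed family, with a median of -1.0 on the x axis. Both axes share the C2C12-PR array.

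The passenger (3p) arms, the strands of the same hairpins that are mostly discarded, were dim. Of 8 probes, 4 were detected on at least 1 array and 1, miR-322-3p, on all 3. miR-322-3p read 20.2 ± 7.76 units in C2C12-PR, 31.8 ± 7.50 in C2C12-DF and 40.2 ± 6.89 in W408-PR. The W408-PR and C2C12-DF readings overlapped, with a log2 ratio of 0.04 ± 0.15, and in C2C12-DF its log2 ratio over C2C12-PR was 0.13 ± 0.20. miR-503-3p was detected on W408-PR alone, at 20.6 ± 6.48 units, whereas miR-15a-3p and miR-15b-3p were detected on C2C12-PR alone, at 14.4 and 12.1 units against a limit of 11.9. None of the 8 was called in any comparison.

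The X-linked cluster continues with miR-351, miR-542 and the miR-450 genes. miR-351-5p and miR-351-3p, whose gene lies in the same noncoding transcript as miR-322 and miR-503, were detected on all 3 arrays. miR-351-5p read 25.1 ± 7.85, 37.3 ± 7.73 and 42.4 ± 6.95 units on C2C12-PR, C2C12-DF and W408-PR, and miR-351-3p 16.5 ± 7.71, 33.9 ± 7.58 and 37.8 ± 6.83 units. Both arms had their lowest reading on C2C12-PR and overlapped between the other arrays. In the parental cultures miR-351-5p also overlapped within 1 technical SD, and miR-351-3p did not. Their normalized log2 ratios over C2C12-PR lay between 0.10 and 0.25 in both comparisons, each within 2 technical SD of 0. Of the 7 probes for miR-450a, miR-450b and miR-542, 1 was detected, miR-450a-2-3p on W408-PR at 12.1 units.

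**Figure D4:**
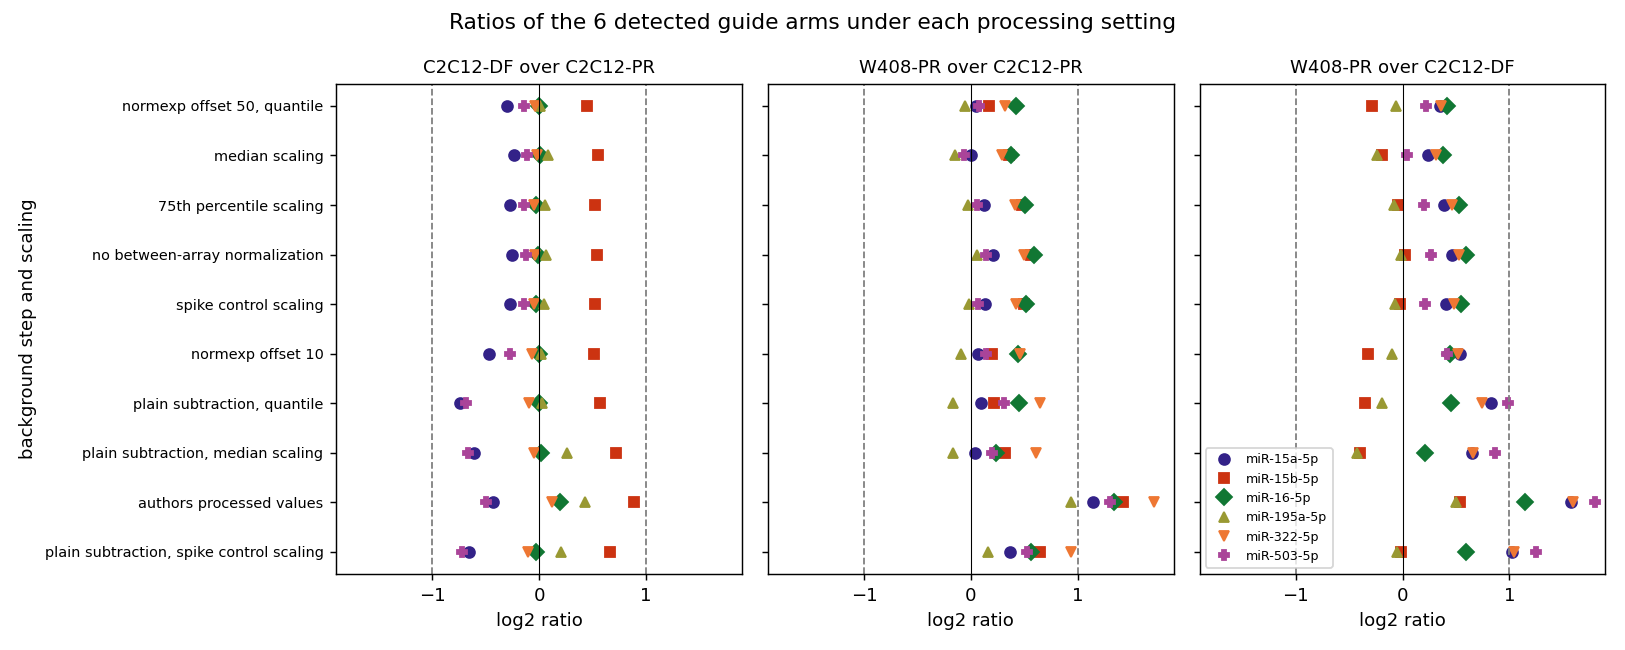
Log2 ratios (x axis) of the 6 detected guide arms under the 10 settings of background and scaling (y axis) in the 3 comparisons, 1 point per member and setting. In C2C12-DF over C2C12-PR miR-15b-5p is the highest and miR-15a-5p or miR-503-5p the lowest in every setting, and in W408-PR over C2C12-PR the authors' processed values move all 6 members up.

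Outside the family, the 5 probes whose pair of log2 ratios over C2C12-PR lay closest to the members' median pair (-0.02 and 0.12) were miR-324-5p, miR-3075-5p, miR-155-5p, miR-34a-5p and miR-3110-3p, at distances of 0.020 to 0.056 on the log2 scale. Likeness here rests on 3 arrays, and 74 of 271 probes lay within 0.25 of that point.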

How the data were processed

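The 3 cultures had their total RNA read on single-colour arrays, 1 per culture, and every array was assigned from its label. Per the file headers, the deposited values are linear spot intensities before any background subtraction, and the authors' processed intensities, which subtract a constant and multiply each array by a factor (0.561, 0.647 and 0.914) chosen so that its detected probes have a median of 25. The scanner and its settings are not given in the sources used here.

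Background was removed from spot intensities by normexp (limma 3.58.1, R 4.3.3, offset 50, background the blank mean after trimming 5% at each end), quantile-normalized over the 1265 miRNA probes and taken to log2 with no pseudocount. Other steps ran in Python 3.11.15 (numpy 2.4.6, pandas 2.3.3, scipy 1.17.1, matplotlib 3.10.9). The technical SD of a probe carries the blank and spike spreads through the same steps. A simplified form of the call rule, without the detection step, was tested on simulated arrays. It recovered most changes of bright probes, raised dim ones only when the change was large, and hardly any lowered dim ones. No miRNA probe was removed before normalization. Medians of log2 ratios, shares of probes called and the search for the 5 nearest probes used detected probes only. The number of arrays limits the precision. The members, lists and settings were chosen with earlier results of these data known. Named are all 8 guide arms, detected members of the passenger-arm, X-linked-cluster and miR-17 lists, and the 5 probes nearest in pattern. Alternatives were other scalings (median, 75th percentile, spike controls, none), an offset of 10, plain subtraction, the authors' values, stricter detection and a 1.5-fold limit.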

Additional observations from a re-analysis of the deposited data

How the results depend on the processing

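No paired analysis was possible because each condition has 1 array, and for the same reason none was left out in turn. No member was called in C2C12-DF over C2C12-PR under any of 12 alternatives. The alternatives that only made detection stricter could not add a call in any comparison, since the main setting called 0 members in each. Their counts of 0 are therefore no check. In W408-PR over C2C12-PR the authors' processed values called 5 members, beside 53.3% of 302 probes, and the other 11 alternatives 0. In W408-PR over C2C12-DF the authors' values and plain subtraction scaled to the spike controls, a setting chosen after seeing the data, called 4 members each, all higher, beside 32.2% of 323 and 10.1% of 524 detected probes, and the other 10 alternatives 0.

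The members' median log2 ratio moved by more than 1 technical SD as follows, and the cause was not tested. In W408-PR over C2C12-PR it was 0.35 with no between-array normalization, 0.28 with spike control scaling, 0.55 with plain subtraction scaled to the spikes and 1.32 in the authors' values, against 0.12. In W408-PR over C2C12-DF it was 0.60 with plain subtraction and quantile normalization, 0.81 scaled to the spikes and 1.36 in the authors' values, against 0.28. In C2C12-DF over C2C12-PR it was 0.16 in the authors' values, against -0.02.

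The difference of the X-linked pair from the miR-15/16 trio moved with plain subtraction, which has no offset. It was -0.33 (quantile normalization), -0.40 (median or spike scaling, or the authors' values) in C2C12-DF over C2C12-PR, 0.22 and 0.20 in W408-PR over C2C12-PR and 0.56 and 0.61 in W408-PR over C2C12-DF. Of 162 values of single members under the alternatives, 99 moved by less than 1 technical SD. Dimness limits miR-503-5p and miR-195a-5p, which lay 1.68 to 4.79 blank-spot SD above background.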

Other observations

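A further 3 miRNAs in the RefSeq table carry the seed AGCAGCA, namely miR-6342, miR-6353 and miR-6419, and each has a probe on the array. None was detected on any of the 3 arrays. The highest reading among them was that of miR-6353 on W408-PR, 9.20 units above background against a detection limit of 9.77.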
